A study of Mus musculus with 8 samples.

Results

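The respiratory chain and ATP synthase genes were followed in TTE3 cells, a mouse Sertoli cell line, during exposure to bisphenol A (BPA). Members were genes on the array with a symbol beginning with Nduf, Uqcr or Atp5, or with Cox followed by a digit from 4 to 8, together with Sdha, Sdhb, Sdhc, Sdhd and Cyc1. This gave 85 of the 12393 genes with a probe set of their own. Where several probe sets named a gene and no other, the brightest on average stood for it. Of the 85 members, 80 encode subunits and 5 (Ndufaf1, Ndufaf3, Ndufaf4, Ndufaf5 and Ndufaf7) encode complex I assembly factors, which the naming rule takes in and which are described apart. After a filter on low signal 82 members were tested, and the 3 left out (Cox6b2, Cox7c and Cox8b) belong to complex IV.

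TTE3 was made from transgenic mice with the large T antigen of simian virus 40 in a temperature-sensitive form, so it is an immortalized line grown without the other cells of the testis. RNA was hybridized to 8 Affymetrix Mouse 430A arrays, 2 for each of 4 groups of TTE3 cells given 0.2 mM BPA for 0, 3, 6 or 12 h. The 0 h cells served as the starting point, and the study's question was the genes' response to BPA, a plastics monomer that is weakly estrogenic. No arrays of cells without BPA at 3, 6 or 12 h were analysed here, so BPA and time in culture cannot be told apart. Whether the 2 arrays of a time stem from separate cultures is not in the labels. Each p-value sets a difference of means against the spread between arrays of a time, pooled over the 4 times and moderated across genes. That spread may be technical.

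The respiratory chain sits in the inner mitochondrial membrane. Complexes I and II feed electrons from NADH and succinate into coenzyme Q, complex III passes them to cytochrome c, and complex IV hands them to oxygen. Complexes I, III and IV pump protons, and complex V, the ATP synthase, uses the returning protons to make ATP. Sertoli cells are known for a strongly glycolytic metabolism that supplies lactate to germ cells. Most subunits are encoded in the nucleus, and the subunits encoded in mitochondrial DNA were not analysed here.

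Median signals were between 150.5 and 169.6 on the 8 arrays, and the 2 arrays of a time correlated at 0.965 to 0.976 over genes. With so few arrays the precision of all values is limited. Of 13 Sertoli cell markers on the array 9 passed the filter: Sox9, Wt1, Gata4, Clu, Inhba, Inhbb, Kitl, Rhox5 and Gata1. Their mean signals ran from 56.2 for Rhox5 to 5585 for Clu. The markers Amh, Dhh, Cldn11 and Fshr did not pass, with mean signals of 15.0, 30.3, 14.1 and 46.2. The summed signal of the 13 markers was 5871 and 6984 on the 12 h arrays, against 10369 and 10663 on the 0 h arrays, and most of it came from Clu. Of the 9 markers tested 2 fell and 2 rose at 12 h. Their part in the results was not tested. Of the markers of other testis cells, 1 of 6 germ cell, 1 of 4 Leydig, 2 of 5 peritubular, 3 of 4 macrophage and 1 of 4 endothelial markers passed. None of these 5 lists had a called member at 12 h. The summed signals on the 12 h arrays, against the 0 h arrays, were 182 to 244 against 179 to 191 for germ cell markers and 470.2 to 551.7 against 470.0 to 470.5 for Leydig cell markers. They were 244 to 278 against 214 to 287 for peritubular, 556 to 628 against 548 to 616 for macrophage and 185 to 219 against 130 to 152 for endothelial markers.

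At 12 h 30 of the 77 subunit genes tested had fallen and 2 of the 5 assembly factor genes had risen. Against 0 h, 15 of the 82 members tested fell at 3 h, 25 at 6 h and 30 at 12 h (limma, adjusted p under 0.05). Among all 8675 genes tested the share that fell was 3.53% at 3 h, 9.73% at 6 h and 17.5% at 12 h. No member rose at 3 h, and 2 rose at both 6 h and 12 h, where 8.55%, 16.8% and 20.9% of all genes rose at 3, 6 and 12 h. The 2 that rose were the assembly factor genes Ndufaf4 and Ndufaf5, and 0 of 77 subunit genes rose at any time. At an unadjusted p under 0.05, 0 subunit genes were higher at 3 h, 1 at 6 h and 2 at 12 h. Of all 8675 genes tested, 1473, 1975 and 2208 were higher at these times by that threshold. The alternatives described below called between 0 and 4 subunit genes higher at 12 h, and the 4 were called without the second 12 h array. In bulk RNA, fewer cells of a type and less RNA per cell cannot be told apart.

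The falls were modest for most members. The median log2 change over the 82 members was -0.15 at 3 h, -0.18 at 6 h and -0.15 at 12 h, where the median of all genes tested was 0.06, 0.07 and 0.06. Both 12 h arrays lay below both 0 h arrays for 42 of 82 members, and 30.9% of all genes did so. All 42 were subunit genes. Over the whole time course 31 members differed between times by the moderated F test, 29 of them subunit genes, and 35.8% of all genes did so, a share close to that of the members.

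The counts at 3 and 6 h depended on single arrays. The number of all genes called lower also dropped when a 0 h array, or an array of the time compared, was left out. Such a run leaves a single array in that group, and the drop is not particular to the members. The 15 calls at 3 h became 5 without the first 0 h array, 7 without the second, and 8 without either 3 h array. The 27 calls at 6 h, rises included, became 16 without the first 0 h array and 17 without the second, and the 31 of the time course became 15 and 16. Without an intensity trend in the variance model these 3 counts were 5, 14 and 15. With the arrays scaled to the same median, 23 subunit genes fell at 3 h and 32 at 6 h. That scaling moved the median of all genes to -0.07 at 3 h and -0.04 at 6 h. It also turned the balance of all calls to 643 lower and 464 higher at 3 h, where 306 and 742 were called as deposited, and to 1187 and 1058 at 6 h, where 844 and 1455 were called. Gene by gene, 4 of the 15 falls at 3 h, 12 of the 25 at 6 h and 17 of the 30 at 12 h kept their call in every alternative run. The 12 h calls lost without the first 0 h array were those of Atp5g1, Ndufa3, Ndufa5, Ndufb10, Ndufb11, Ndufc1, Ndufc2 and Ndufs8, and without the second those of Atp5d, Atp5md, Ndufa13, Ndufb8, Ndufc2 and Ndufs8. Without the first 12 h array the calls of Atp5md, Atp5mpl, Ndufa13 and Ndufc2 were lost, and without the second those of Atp5d, Atp5g1, Ndufa13, Ndufa3, Ndufa5, Ndufb10 and Ndufs8.

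**Figure D1:**
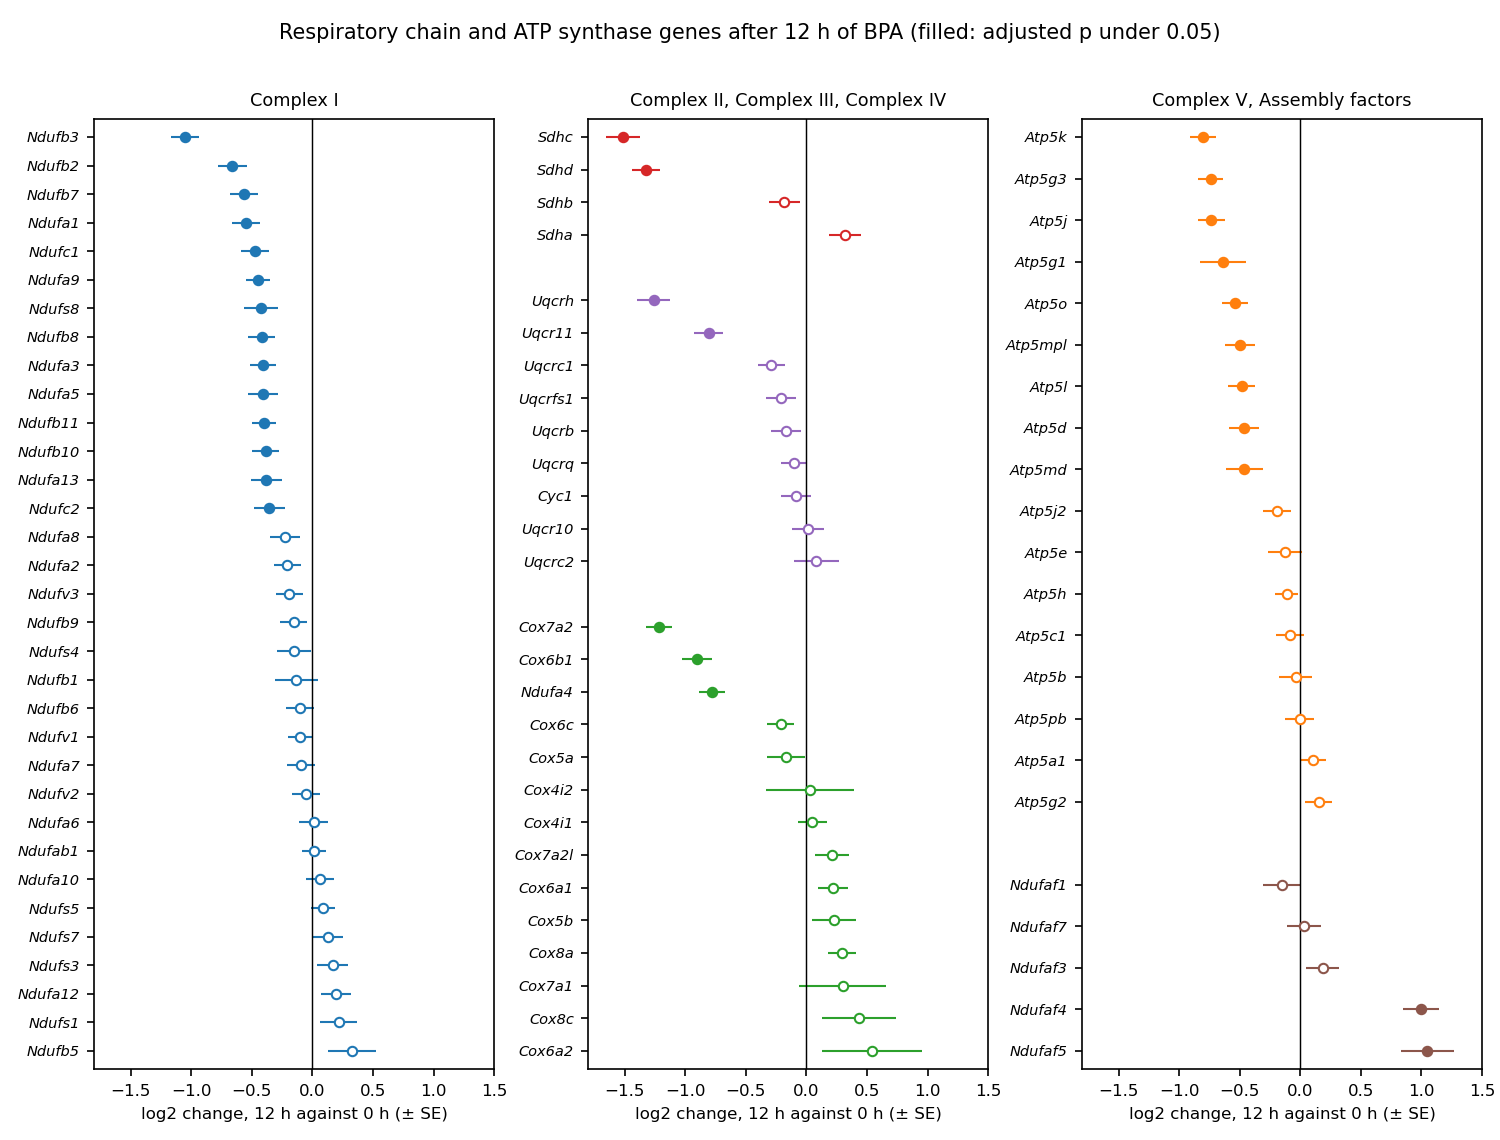
Log2 change at 12 h against 0 h of each of the 82 members tested (x axis, log2 units), grouped by complex, with its standard error and n = 2 arrays per time; filled points had an adjusted p under 0.05. The 30 filled points of the subunits all lie to the left of 0, down to -1.52 for Sdhc, and the filled points to the right are Ndufaf4 at 1.0 and Ndufaf5 at 1.05.

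In complex I, the NADH dehydrogenase, 6 of 33 fell at 3 h, 12 at 6 h and 14 at 12 h, with median changes of -0.17, -0.19 and -0.19. In complex II, succinate dehydrogenase, 2 of 4 fell at each time, with medians of -0.45, -0.67 and -0.75. In complex III, 1, 2 and 2 of 9 fell, with medians of -0.12, -0.24 and -0.17. In complex IV, cytochrome c oxidase, 3 of 14 fell at each time, with medians of 0.07, 0.06 and 0.13. In complex V, 3, 6 and 9 of 17 fell, with medians of -0.20, -0.25 and -0.46. At 12 h these are 42.4% of complex I, 50% of II, 22.2% of III, 21.4% of IV and 52.9% of V, beside 17.5% of all genes. The shares of complexes III and IV lay near that background, and differences between complexes were not tested. The complex IV values include 4 paralogues of low signal used in particular organs, of which 0 fell, with a median of 0.37 at 12 h. Of the other 10 complex IV members tested, 3 (30%) fell at 12 h, with a median of -0.06. The medians of complexes I, II, III and V were below 0 under every alternative run. The complex IV median lay near 0, and its sign at 12 h turned when genes below the 50th percentile of signal were left out (-0.06). At 3 and 6 h it also turned there (-0.10 and -0.08) and with the arrays scaled to the same median (-0.06 and -0.05), at 3 h with no filter (-0.05), and at 6 h with quantile normalization (-0.04). Without the second 0 h array it turned at 3 and 6 h, and without the first 6 h array at 6 h.

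**Figure D2:**
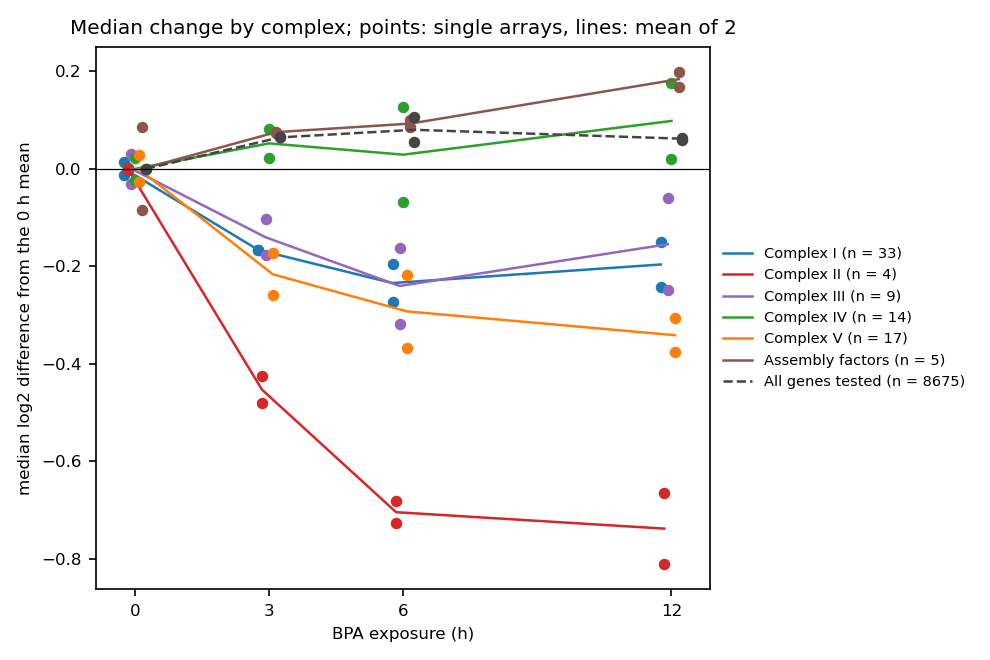
Median over the members of a complex of the log2 difference between an array and the 0 h mean (y axis) at 0, 3, 6 and 12 h of BPA (x axis); points are single arrays and lines the mean of 2. Complex II lay lowest at 3, 6 and 12 h, and the points of complex IV stayed around the dashed line of all 8675 genes; these are medians taken on each array and differ slightly from the medians of the fitted changes.

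Complex II, the enzyme that links the citric acid cycle to the chain, showed a division between its membrane and catalytic subunits. Sdhc and Sdhd encode the anchors that hold the enzyme in the membrane and bind coenzyme Q. Sdhc had signals of 1797 and 1706 at 0 h, 979.7 and 965.9 at 3 h, 667.7 and 753.6 at 6 h, and 530.2 and 694.8 at 12 h. The arrays of 3, 6 and 12 h all lay below those of 0 h. Sdhc fell, with log2 changes of -0.84 at 3 h, -1.29 at 6 h and -1.52 at 12 h, each ± 0.14 (SE; limma adjusted p = 0.00158, 2.37e-05 and 3.52e-06), and its 12 h signal was 2.86-fold lower.

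Sdhd had 1983 and 2074 at 0 h, 1232 and 1245 at 3 h, 829.0 and 964.7 at 6 h, and 839.5 and 772.9 at 12 h. The groups of 3, 6 and 12 h again did not overlap that of 0 h. Sdhd fell too, with log2 changes of -0.71, -1.17 and -1.32, each ± 0.12 (limma adjusted p = 0.00171, 1.34e-05 and 2.73e-06). Both genes have another probe set, and it was also lower at 12 h, with a log2 change of -0.68 for Sdhc (adjusted p = 0.0184 in a limma fit of every probe set) and -0.99 for Sdhd (adjusted p = 0.0102).

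The catalytic subunits of complex II did not pass against 0 h at any time, while Sdha passed the moderated F test over the 4 times (limma adjusted p = 0.0349). Sdhb, the iron-sulphur subunit, had 4368 and 3710 at 12 h against 4860 and 4295 at 0 h, and these values overlapped. Its 12 h change was -0.18 with a 95% interval of -0.46 to 0.09. Sdha, the flavoprotein subunit, had 3871 and 2960 at 12 h against 2587 and 2845 at 0 h, a change of 0.32 with an interval of 0.04 to 0.60 (limma adjusted p = 0.0704). The interval leaves out 0 because it is not adjusted over genes. Sdha was called higher with quantile normalization (0.34, adjusted p = 0.0454) and without the second 12 h array (0.51).

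**Figure D3:**
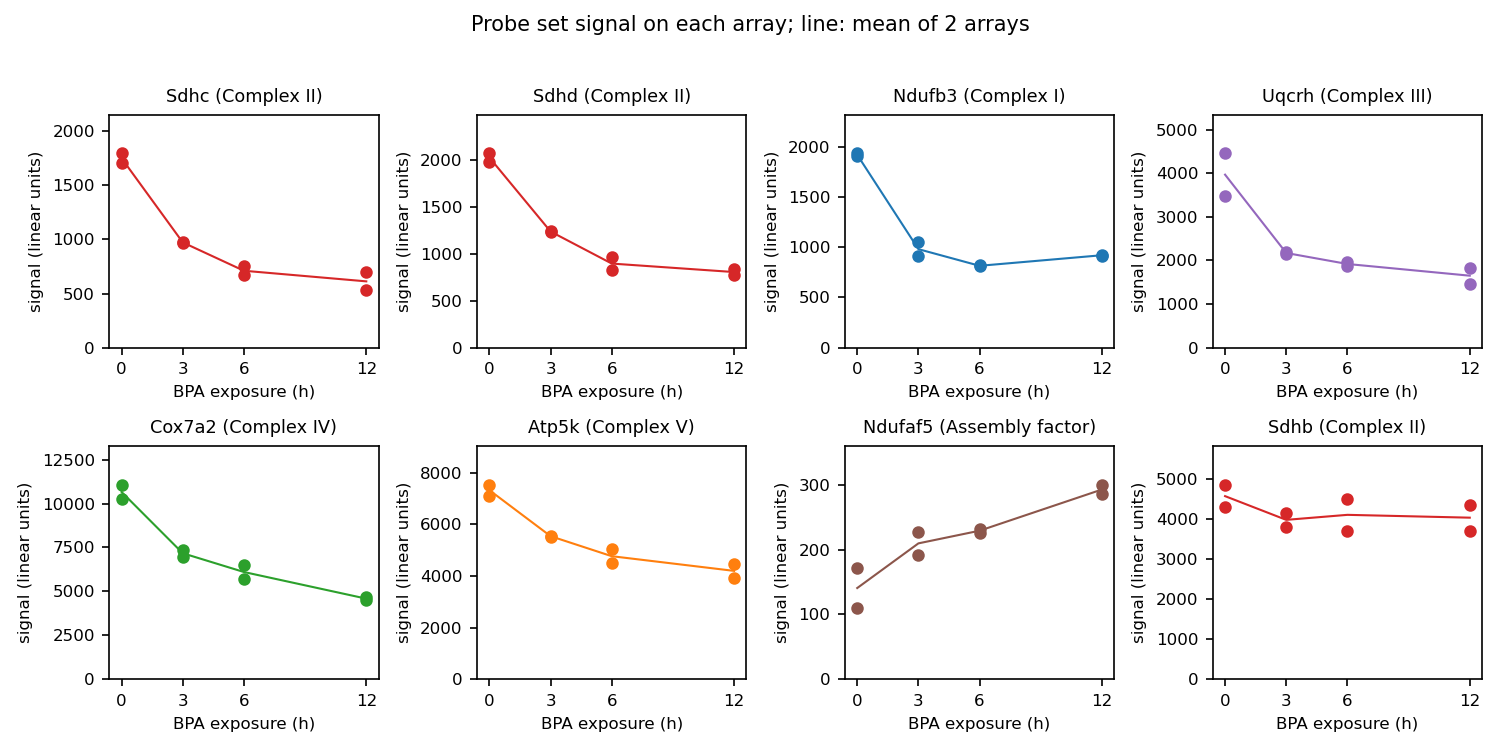
Signal of 8 members on each of the 8 arrays (y axis, linear units from 0) at 0, 3, 6 and 12 h of BPA (x axis); the line joins the means of 2 arrays. Sdhc, Sdhd, Ndufb3, Uqcrh, Cox7a2 and Atp5k lay below their 0 h arrays at every later time, and Ndufaf5 lay above them. Both 3 h arrays of Sdhb lay below its 0 h arrays, and those of 6 h and 12 h overlapped them.

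In complex III, Uqcrh and Uqcr11 fell. Uqcrh encodes the hinge protein at the cytochrome c side of the complex. It had 4455 and 3478 at 0 h, 2144 and 2195 at 3 h, 1962 and 1873 at 6 h, and 1469 and 1829 at 12 h. Every later array was below both 0 h arrays, although the 0 h arrays differed from each other by more than those of any later time. Uqcrh fell, with log2 changes of -0.86, -1.04 and -1.26, each ± 0.14 (limma adjusted p = 0.0012, 0.000139 and 1.39e-05). Uqcr11, the smallest subunit of the complex, had 2510 and 2356 at 12 h against 4435 and 4093 at 0 h. It fell, with log2 changes of -0.50 at 6 h and -0.81 at 12 h (limma adjusted p = 0.00794 and 0.000176), and its change of -0.30 at 3 h did not pass.

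The electron carriers of complex III did not pass. Cyc1, cytochrome c1, had 5738 and 4691 at 12 h against 5197 and 5822 at 0 h, a change of -0.08 (95% interval -0.36 to 0.19). Uqcrfs1, the Rieske iron-sulphur protein, changed by -0.21 (limma adjusted p = 0.198). Uqcrb, a coenzyme Q binding subunit, had 14704 and 12492 at 12 h against 13972 and 16621 at 0 h and changed by -0.17. Its other probe set read -0.64 at 12 h (adjusted p = 0.00768), and Uqcrb was called lower with quantile normalization and with the mean of all probe sets.

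In complex IV, 3 members fell at every time and by large amounts, and the other 11 tested did not pass at any time by the probe sets used. Cox5a changed by -0.17 at 12 h by the probe set used. Another of its probe sets was called lower at 6 h (-1.18) and 12 h (-1.14, limma adjusted p = 0.0339), and a further probe set read -0.02 at 12 h. Cox7a2, the form of subunit VIIa found in liver and most tissues, had 10258 and 11070 at 0 h, 7361 and 6983 at 3 h, 6507 and 5698 at 6 h, and 4660 and 4508 at 12 h. The ranges of the 4 times did not overlap. Cox7a2 fell, with log2 changes of -0.57, -0.81 and -1.22 against 0 h, each ± 0.11 (limma adjusted p = 0.00381, 0.000147 and 2.52e-06), and its other probe set read -1.11 at 12 h. Cox6b1, a subunit facing the intermembrane space, had 6653 and 5718 at 12 h against 11867 and 11217 at 0 h. Its log2 changes were -0.58, -0.72 and -0.90, each ± 0.12. Ndufa4, named for complex I but now counted with complex IV, had 3575 and 3166 at 12 h against 5852 and 5704 at 0 h. Its log2 changes were -0.43, -0.60 and -0.78, each ± 0.11, and the call at 3 h was lost when any of the 0 h or 3 h arrays was left out, as were the 3 h calls of Atp5k and Atp5g3 in complex V.

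Several genes of complex IV have tissue forms, which are paralogues used in particular organs. Cox6a1, the common form of subunit VIa, had 19323 and 17321 at 12 h against 15004 and 16446 at 0 h, and its change of 0.22 did not pass (95% interval -0.04 to 0.48). Cox4i1, the common form of subunit IV, changed by 0.05 (interval -0.21 to 0.31), and Cox5b by 0.23 (interval -0.16 to 0.61). Cox8a, the common form of subunit VIII, had 4336 and 4087 at 12 h against 3771 and 3110 at 0 h, a change of 0.30 (limma adjusted p = 0.0566) that was called with quantile normalization (0.34, adjusted p = 0.0235) and in some other alternatives. Cox7a2l, which helps form supercomplexes of the chain, changed by 0.21 and did not pass. Another probe set of Cox7a2l was called higher at 12 h (0.31, limma adjusted p = 0.0459). For Cox5b another probe set was called higher at 6 h (0.98, limma adjusted p = 0.0392). A further probe set of Cox5b read -0.49 at 12 h and did not pass. The tissue forms Cox4i2, Cox6a2, Cox7a1 and Cox8c had signals between 50.7 and 209.8 on all arrays, and 0 of these 4 passed. Cox6b2 and Cox8b were below the filter, with signals of at most 51.9. Cox7c, a subunit of all tissues, also lay just below the filter, whose bound on the mean log2 signal was 5.79.

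In complex V, 9 of 17 members had fallen at 12 h. The largest fall was that of Atp5k, subunit e, which lies in the membrane where synthase dimers form. Atp5k had 7124 and 7539 at 0 h, 5529 and 5563 at 3 h, 5046 and 4494 at 6 h, and 4466 and 3933 at 12 h. No array of a later time reached the 0 h arrays. Atp5k fell, with log2 changes of -0.40, -0.62 and -0.81, each ± 0.11 (limma adjusted p = 0.03, 0.00107 and 8.56e-05). Its 2 other probe sets read -1.24 and -1.04 at 12 h. Of the 3 probe sets, 2 can bind several transcripts, the one used among them. The third is not of that kind, and it fell at each time, with log2 changes of -0.82, -0.62 and -1.24.

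The c subunit, whose ring turns in the membrane, is encoded by 3 genes for the same mature protein. Atp5g3 had 6258 and 5767 at 12 h against 10171 and 9905 at 0 h. It fell at each time, with log2 changes of -0.39, -0.56 and -0.74, each ± 0.10. Atp5g1 had 2368 and 1766 at 12 h against 3397 and 3000 at 0 h and fell, with log2 changes of -0.84 at 6 h and -0.64 at 12 h, each ± 0.19 (limma adjusted p = 0.00517 and 0.0159). Atp5g2 did not pass: it had 7293 and 6617 at 12 h against 6264 and 6251 at 0 h, a change of 0.15 (95% interval -0.09 to 0.40). A second probe set of Atp5g2 had 161.4 and 124.6 at 12 h against 16.9 and 39.3 at 0 h, and no fold is given because these 0 h signals were as low as those of genes below the filter. The mean of the 2 probe sets was called higher, and it includes this one.

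The other members of complex V that fell at 12 h lie in the stalk or the membrane part, except Atp5d. Atp5j, coupling factor 6 of the stalk, fell (log2 change -0.74), as did Atp5o, the oligomycin sensitivity protein at the top of the stalk (-0.54). The small membrane subunits Atp5mpl, Atp5l and Atp5md fell, with changes of -0.50, -0.48 and -0.46. Atp5d, the delta subunit of the central rotor, fell by 0.46 on the log2 scale. Of 12 stalk or membrane members 8 fell at 12 h, and of 5 members of the F1 head and rotor 1 fell, the second a share near the 17.5% of all genes; the difference was not tested. The catalytic core did not pass: Atp5b, the beta subunit, had 11250 and 10643 at 12 h against 9954 and 12691 at 0 h, a change of -0.04 (95% interval -0.33 to 0.25). Atp5a1, the alpha subunit, changed by 0.11 (interval -0.13 to 0.34). Atp5j2, of the stalk or membrane part and next to Atp5b in mean signal, changed by -0.19 at 12 h and did not pass. Its other probe set was called lower at 12 h (-0.48, adjusted p = 0.0162 in a limma fit of every probe set). With the mean of all probe sets Atp5j2 was called lower at 6 h (-0.29) and 12 h (-0.34).

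In complex I the largest fall was that of Ndufb3, an accessory subunit of the membrane arm. It had 1938 and 1908 at 0 h, 1051 and 913.0 at 3 h, 822.7 and 809.2 at 6 h, and 916.4 and 926.5 at 12 h. The later arrays were all below the 0 h arrays, and the lowest were those of 6 h. Ndufb3 fell, with log2 changes of -0.97, -1.23 and -1.05, each ± 0.12 (limma adjusted p = 0.000105, 6.74e-06 and 1.44e-05). The call held in every alternative run at all 3 times, as it did for Sdhc, Sdhd and Uqcrh.

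Of 10 NDUFB genes, whose products line the membrane arm, 6 fell at 12 h, where 17.5% of all genes did. Ndufb2 (log2 change -0.66) and Ndufb7 (-0.57) fell at 3 and 6 h too. The changes of Ndufb8, Ndufb11 and Ndufb10 were -0.42, -0.40 and -0.39. Of 14 NDUFA or NDUFC genes 7 fell at 12 h. Ndufa1, an X-linked subunit of the membrane arm, had 4004 and 3728 at 12 h against 6158 and 5191 at 0 h, a change of -0.55. Ndufc1 and Ndufa9, a subunit near the coenzyme Q site, changed by -0.47 and -0.45. The falls of Ndufa3, Ndufa5, Ndufa13 and Ndufc2 were smaller (-0.41, -0.41, -0.38 and -0.36). Ndufa8 fell at 3 h (-0.43, adjusted p = 0.035), a call lost without any 0 h or 3 h array, and did not pass at 6 or 12 h. Ndufa12 and Ndufb9, the complex I members with the highest mean signal, changed by 0.19 and -0.15 and did not pass.

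Of 9 NDUFS or NDUFV genes, most of which encode the subunits with the flavin and iron-sulphur centres, 1 fell at 12 h. With so few genes this share (11.1%) cannot be told from the 17.5% of all genes, and differences between these groups were not tested. The gene that fell was Ndufs8, an iron-sulphur subunit, with 4740 and 3625 at 12 h against 5429 and 5732 at 0 h. It fell by 0.43 ± 0.14 (limma adjusted p = 0.0275), and the call was lost without either 0 h array or without the second 12 h array (-0.23). Of its 5 other probe sets 2 were called lower at 12 h, and 1 of these was lower at each time, with log2 changes of -0.54, -0.52 and -0.62 (limma adjusted p = 0.00804, 0.00408 and 0.000779). Ndufs1, Ndufs3, Ndufs7, Ndufv1 and Ndufv2 had 12 h changes between -0.10 and 0.22, and none passed.

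Sorted by role over all complexes, 29 of 61 accessory subunits (47.5%) and 1 of 12 subunits of the catalytic core (8.33%) fell at 12 h, beside 17.5% of all genes. The core comprised the 6 complex I subunits just named, Sdha, Sdhb, Uqcrfs1, Cyc1, Atp5a1 and Atp5b. At 3 h 15 accessory and 0 core subunits fell, and at 6 h 25 and 0, where 3.53% and 9.73% of all genes did. So few core genes give little room to tell their count from that background, and another probe set of Ndufs8 was lower at both times. At an unadjusted p under 0.05, 30 accessory and 1 core subunits were lower at 12 h, as were 1826 of all 8675 genes tested. The median 12 h change was -0.23 for the accessory and -0.05 for the core subunits. This division counted the coenzyme Q binding anchors Sdhc and Sdhd as accessory, and also the c subunit genes Atp5g1, Atp5g2 and Atp5g3. Other divisions would place such genes in the core and give other counts. The division was made after the values had been seen, and it was not tested.

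**Figure D4:**
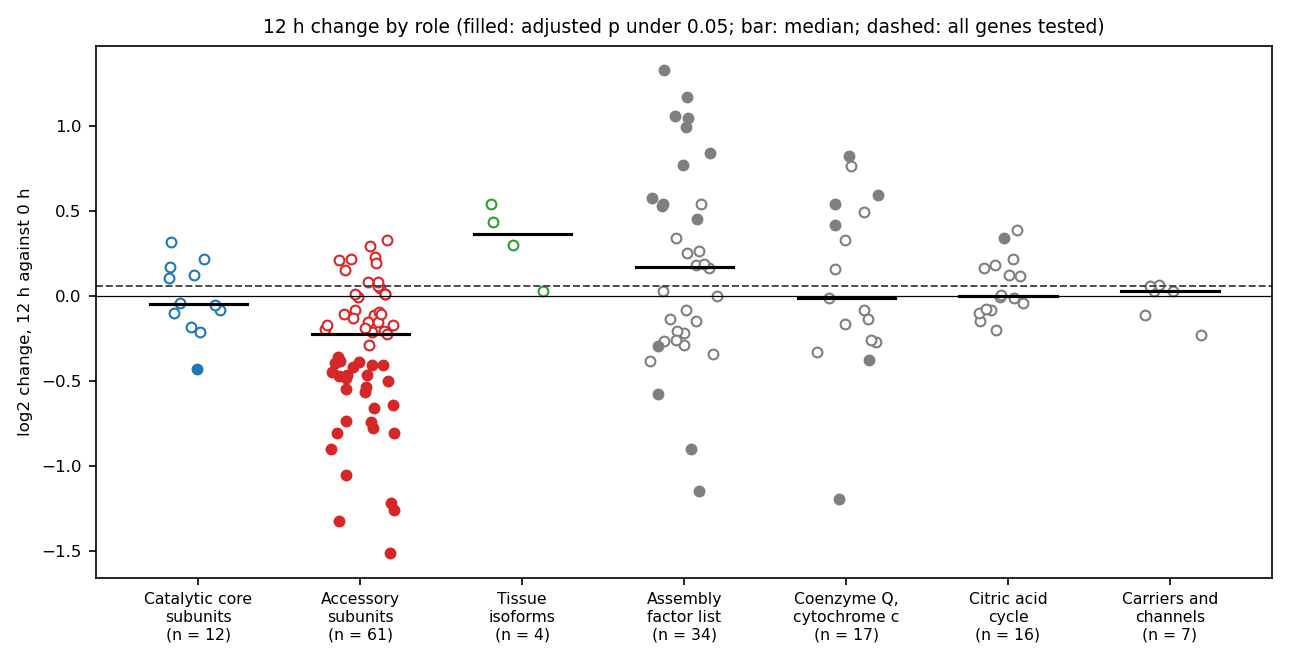
Log2 change at 12 h against 0 h (y axis) of each tested gene by role, with filled points for an adjusted p under 0.05, bars for the median of a group and a dashed line for the median of all genes tested (0.06). The 29 filled points of the accessory subunits lie below 0 and 1 of 12 core subunits is filled, while the filled points of the assembly factor list lie on both sides, 11 above and 4 below.

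The assembly factors among the members moved the other way or did not pass. Ndufaf5, which modifies a core subunit of complex I during assembly, had 171.3 and 109.9 at 0 h, 227.2 and 191.9 at 3 h, 226.0 and 232.2 at 6 h, and 299.9 and 285.5 at 12 h. Its later arrays were all above the 0 h arrays, which differed between themselves by more than those of 12 h. Ndufaf5 rose by 0.71 ± 0.22 at 6 h and 1.05 ± 0.22 at 12 h (limma adjusted p = 0.03 and 0.00205). The 6 h call was lost in 7 alternatives, among them without the second 0 h array (0.40), and the 12 h call in none.

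Ndufaf4, another complex I assembly factor, had 618.0 and 706.6 at 0 h, 634.5 and 512.4 at 3 h, 833.1 and 1046 at 6 h, and 1341 and 1309 at 12 h. The 3 h arrays overlapped those of 0 h, and the 6 h and 12 h arrays lay above both. By this probe set Ndufaf4 rose by 0.49 ± 0.15 at 6 h and 1.0 ± 0.15 at 12 h (limma adjusted p = 0.0254 and 0.000174). Its other probe set read the opposite sign, -0.75 at 12 h (adjusted p = 0.0613), with signals of 103.0 and 129.3 at 12 h against 193.0 and 206.8 at 0 h. At 6 h this probe set was called lower, with a change of -1.05 (limma adjusted p = 0.0202), so the 2 probe sets were called in opposite directions. The mean of the 2 probe sets was 0.12 at 12 h and -0.28 at 6 h and did not pass. Ndufaf1, Ndufaf3 and Ndufaf7 changed by -0.15, 0.18 and 0.03 at 12 h and did not pass.

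Between later times few members differed. From 3 h to 6 h, 0 members fell and 1 rose, where 0.553% of all genes fell and 0.565% rose. The riser was Ndufaf4 (0.70 ± 0.15, limma adjusted p = 0.0382). From 6 h to 12 h, 1 member fell and 0 rose, where 3.85% of all genes fell and 0.922% rose. This was Cox7a2 (-0.41 ± 0.11, limma adjusted p = 0.0483). At an unadjusted p under 0.05, 5 members were lower and 1 higher at 6 h against 3 h, and 3 were lower and 3 higher at 12 h against 6 h. Of all 8675 genes tested, 606 were lower and 638 higher at 6 h against 3 h by this threshold. At 12 h against 6 h, 1145 were lower and 595 higher. The step calls of Ndufaf4 and Cox7a2 were both lost without a filter, without the intensity trend, in a fit of only the 2 groups, and without some single arrays. The comparisons with 0 h share the same 0 h arrays, so their values are given side by side and are not independent.

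Agreement between probe sets of the same gene was checked for all members. The 85 members had 157 probe sets, of which 147 were tested in a separate fit of every probe set. In that fit 51 of these were lower and 6 higher at 12 h. The share over all probe sets in that fit was not worked out, so these counts have no background beside them. Of the 32 members called at 12 h, 16 had other tested probe sets, 22 in all. For 14 of the 16 genes every other probe set had the same sign, 16 of the 22 were themselves called the same way, and 0 were called the opposite way. Uqcr10 is a member whose probe sets disagreed. This small complex III subunit had a change of 0.01 by its brightest probe set, with 5215 and 4928 at 12 h against 4947 and 5125 at 0 h. Its 2 dimmer probe sets read 1.64 (adjusted p = 1.74e-05) and 1.01 (adjusted p = 0.000111). The dimmer of these had 610.2 and 681.5 at 12 h against 198.0 and 205.4 at 0 h.

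**Figure D5:**
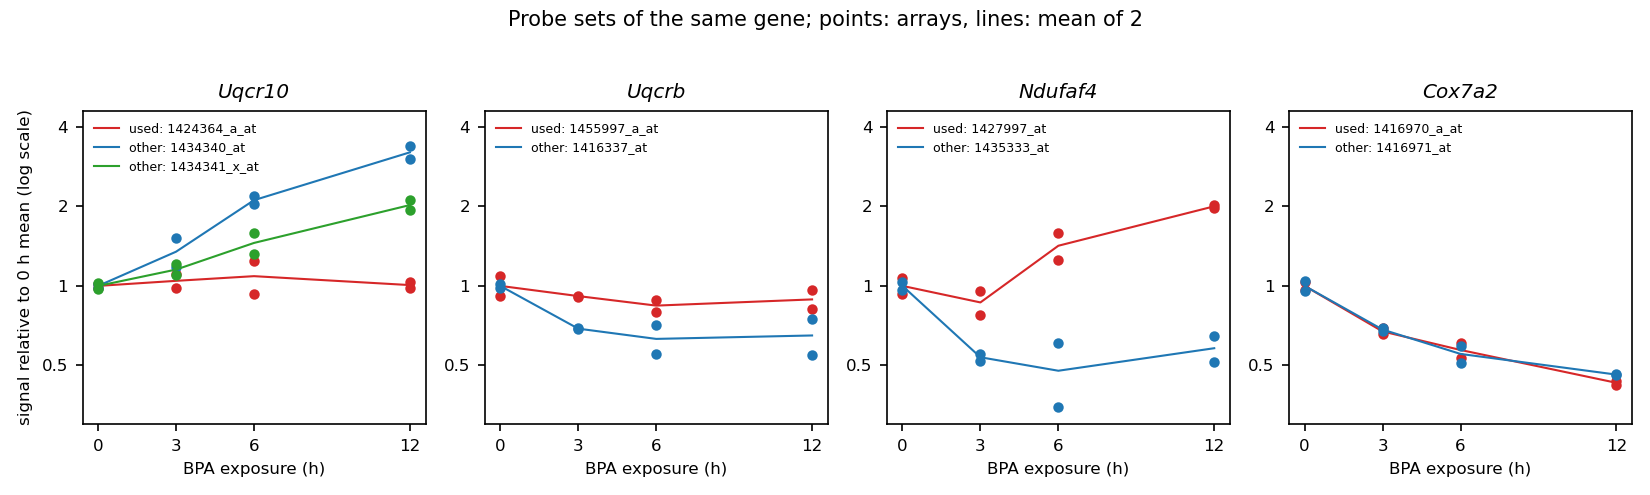
Signal relative to the mean of the 2 arrays at 0 h (y axis, log scale) for each tested probe set of Uqcr10, Uqcrb, Ndufaf4 and Cox7a2 at 0, 3, 6 and 12 h of BPA (x axis); points are arrays, lines the mean of 2, and red marks the probe set used for the gene. The probe sets of Cox7a2 ran together, those of Ndufaf4 parted in opposite directions, and the 2 dimmer probe sets of Uqcr10 rose while the one used stayed near 1.

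Other mitochondrial gene lists were set beside the members. At 12 h 17.5% of all genes fell and 20.9% rose, and the counts of each list are read beside these shares. In a list of assembly factors of all complexes (which holds the 5 Ndufaf members), 4 of 34 tested genes fell and 11 rose at 12 h, with a median of 0.17. Atpaf2, a chaperone of the ATP synthase alpha subunit, had 636.4 and 682.5 at 12 h against 247.5 and 266.6 at 0 h and rose by 1.33 (limma adjusted p = 0.000135). Cox18, which inserts a complex IV subunit into the membrane, rose by 1.17 (limma adjusted p = 1.15e-05). Cox19, a complex IV assembly protein linked to copper delivery, fell (log2 change -1.1), with 638.9 and 689.9 at 12 h against 1640 and 1334 at 0 h.

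Of 17 genes for coenzyme Q synthesis, cytochrome c and other electron donors, 2 fell and 4 rose at 12 h, with a median of -0.01 and shares near those of all genes. Coq6 and Coq9, which act in coenzyme Q synthesis, rose by 0.83 and 0.60. Aifm1, a flavoprotein needed for normal complex I levels, fell by 1.19 on the log2 scale, with 876.6 and 913.9 at 12 h against 2142 and 1978 at 0 h. Of 16 genes for pyruvate dehydrogenase and the citric acid cycle 0 fell and 1 rose, with a median of 0.00. The riser was Idh3a, a subunit of isocitrate dehydrogenase (0.34, limma adjusted p = 0.0214), a call lost without either 0 h array or without the first 12 h array, and its change was 0.04 with the mean of all probe sets. Of 7 carrier and channel genes 0 passed, with a median of 0.03.

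Of 16 regulators of mitochondrial biogenesis, 1 fell and 3 rose at 12 h, with a median of 0.14, and the share that rose was near that of all genes. Polg2, the accessory subunit of the mitochondrial DNA polymerase, rose by 0.94, and Tfb1m, which methylates mitochondrial ribosomal RNA, by 0.72. The Tfb1m call was lost in 7 alternatives, 4 of them single arrays left out, and its change was 0.44 with the mean of all probe sets. Ppargc1b, a coactivator of respiratory chain genes, had 15.6 and 15.7 at 12 h against 98.5 and 86.0 at 0 h. It was the gene of this list called lower (limma adjusted p = 0.0135), but no fold is given, since its 12 h signals were as low as those of genes below the filter. The call was lost without either 0 h array (adjusted p = 0.087 and 0.0631).

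Promoter sequences were compared because many of the members fell together. RefSeq sequences of assembly GRCm38.p6, from 250 bases before to 50 after a gene's start, were at hand for 70 of the 85 members and for 28 of the 30 that fell at 12 h. Shown here are Sdhd, Uqcrh and Cox7a2, which fell, Sdhb, a partner of Sdhd in complex II that did not pass, and Ndufaf5, which rose. Capitals mark matches, on either strand, to GCGCATGC (bound by NRF1), CCGGAAG (bound by ETS factors such as GABP) or AAGATGG (bound by YY1), motifs known from promoters of respiratory chain genes. Each is written 5′ to 3′ on the strand of the gene. The windows of Ndufb3, which fell, and Ndufaf4, which rose by the probe set used, are not shown. That of Ndufb3 holds none of the motifs marked, and that of Ndufaf4 holds matches to GCGCATGC only. Sdhc, with the largest fall, has no promoter entry.

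Sdhd lies on the minus strand, and its window is chr9:50603800-50604099. Its match to CCGGAAG begins 46 bases before the start.
Sdhd: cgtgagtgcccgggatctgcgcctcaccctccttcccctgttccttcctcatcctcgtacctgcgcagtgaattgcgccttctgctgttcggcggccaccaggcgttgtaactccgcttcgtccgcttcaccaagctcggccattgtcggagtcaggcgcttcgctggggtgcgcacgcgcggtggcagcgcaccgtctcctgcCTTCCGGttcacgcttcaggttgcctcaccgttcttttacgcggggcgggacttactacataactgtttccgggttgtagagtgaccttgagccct
Sdhb lies on the plus strand, and its window is chr4:140961021-140961320. It has a match to GCGCATGC and a match to CCGGAAG.
Sdhb: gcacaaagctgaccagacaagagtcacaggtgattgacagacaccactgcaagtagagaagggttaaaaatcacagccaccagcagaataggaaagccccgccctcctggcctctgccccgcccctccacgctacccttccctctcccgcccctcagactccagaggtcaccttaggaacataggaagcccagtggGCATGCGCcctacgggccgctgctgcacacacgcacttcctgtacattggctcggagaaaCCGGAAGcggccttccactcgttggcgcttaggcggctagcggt
Uqcrh lies on the minus strand, and its window is chr4:116075021-116075320. Its match to CCGGAAG begins 10 bases before the start.
Uqcrh: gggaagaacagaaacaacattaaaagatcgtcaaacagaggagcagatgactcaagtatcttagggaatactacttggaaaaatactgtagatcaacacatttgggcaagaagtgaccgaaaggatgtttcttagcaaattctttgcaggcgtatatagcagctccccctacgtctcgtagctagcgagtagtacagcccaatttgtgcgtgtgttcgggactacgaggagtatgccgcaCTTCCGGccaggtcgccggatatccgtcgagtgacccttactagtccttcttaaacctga
Cox7a2 lies on the minus strand, and its window is chr9:79759804-79760103. It holds none of the 3 motifs in this window.
Cox7a2: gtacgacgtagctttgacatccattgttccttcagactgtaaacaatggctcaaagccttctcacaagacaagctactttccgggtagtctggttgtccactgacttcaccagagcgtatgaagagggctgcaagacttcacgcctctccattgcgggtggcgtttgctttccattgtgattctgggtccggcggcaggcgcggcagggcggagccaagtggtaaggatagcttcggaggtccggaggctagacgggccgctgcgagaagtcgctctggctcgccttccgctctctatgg
Ndufaf5 lies on the plus strand, and its window is chr2:140170396-140170695. Its 2 matches to GCGCATGC, on opposite strands, overlap and begin 17 and 19 bases after the start.
Ndufaf5: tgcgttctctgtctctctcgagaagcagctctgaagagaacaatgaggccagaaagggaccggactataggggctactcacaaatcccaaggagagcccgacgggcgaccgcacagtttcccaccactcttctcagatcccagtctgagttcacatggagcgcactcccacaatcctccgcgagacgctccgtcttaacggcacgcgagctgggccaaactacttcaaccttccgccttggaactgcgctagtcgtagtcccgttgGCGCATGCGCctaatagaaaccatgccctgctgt

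Of the 28 subunit genes that fell and have a promoter entry, 3 (10.7%) held GCGCATGC, 9 (32.1%) CCGGAAG and 4 (14.3%) AAGATGG. Of the 34 other subunit genes tested with an entry, 6 (17.6%) held GCGCATGC, 7 (20.6%) CCGGAAG and 4 (11.8%) AAGATGG. Among all 27025 promoters the shares were 2.80%, 9.12% and 6.48%, and among the 7098 promoters of genes tested 5.85%, 19.2% and 7.61%. The motif AAGGTCA, bound by estrogen-related receptors, was in 5 of the 28 (17.9%) and 2 of the 34 (5.88%), and in 4.66% of all promoters and 2.96% of those of genes tested. The GC box GGGCGG was in 9 of the 28 (32.1%) and 17 of the 34 (50%), and in 35.9% of all promoters and 66.4% of those of genes tested. CCAAT was in 12 and 13 (42.9% and 38.2%), against 37.9% and 38.9%. The E box CACGTG was in 3 and 3 (10.7% and 8.82%), against 7.24% and 10.5%. TGATGNAA, bound by ATF4 with C/EBP factors, was in 0 of both groups, against 4.06% and 2.11%. These matches were not tested, and a match is no proof of binding.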

How the data were processed

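Total RNA of TTE3 cells was measured on 8 one-colour arrays, grouped by time from the titles. The authors deposited a linear intensity for every probe set of each array. The summary software is not given in the sources used here. The values show that arrays had been scaled to a common trimmed mean (499.2 to 499.9 without the top and bottom 2%), so a general change of RNA would not be seen. Detection calls were not used.

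Of 22690 probe sets, 64 controls were left out, 20380 named exactly 1 gene, 691 several (8 of them with a member's name) and 1555 none. Symbols of 20351 were updated through Entrez identifiers to RefSeq (GRCm38.p6), which changed 0 member symbols. A gene kept the probe set whose log2 signal averaged highest. Of the 85 members, 18 are read by _s_at or _x_at probe sets, which can bind several transcripts.

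Tests used log2(signal + 7.9), an offset equal to the 10th percentile of the values, which understates changes of low genes. Genes above the 30th percentile of mean log2 signal were kept. All 8 arrays were fitted with 1 mean per time in limma 3.58.1 (R 4.3.3, lmFit, eBayes with trend; 4 residual and 9.00 prior degrees of freedom). P-values were two-sided, adjusted by Benjamini-Hochberg over the 8675 genes tested in each of 5 comparisons, and called at an adjusted p under 0.05. The fit was also tried on simulated arrays with known changes of at least 1 log2 unit. That trial did not cover smaller changes, and most of the member calls are smaller. The fold given for Sdhc is a ratio of its mean linear signals, without the offset. Signals of different probe sets are not comparable as levels.

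The members, lists, motifs and roles were chosen with earlier results of these data known. Named were members called at any time against 0 h, in each complex the 2 members with the highest signal and the largest 12 h change, members with paralogous forms, and up to 3 called genes a list by 12 h change; all others named, such as Ndufaf1, Uqcrfs1, Uqcr10 and the core subunits, were added with their values in view. The alternatives tried were other scalings, offsets, filters, variance models and probe set rules, a replicate block, and leaving out each array; every probe set as its own row was added after seeing the data.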

Additional observations from a re-analysis of the deposited data

Results flagged for a closer look

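In 2 members the step between neighbouring BPA times itself passed the test. Ndufaf4 was higher at 6 h than at 3 h by 0.70 (log2, limma adjusted p = 0.0382), with signals of 833.1 and 1046 at 6 h against 634.5 and 512.4 at 3 h. This step was read by the brighter of its 2 probe sets, and the mean of both did not pass. Cox7a2 was lower at 12 h than at 6 h, by -0.41 (limma adjusted p = 0.0483), with signals of 4660 and 4508 at 12 h against 6507 and 5698 at 6 h.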

How the results depend on the processing

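The 32 calls at 12 h kept within 1.5 times under every alternative, between 25 and 39, and between 25 and 34 when single arrays were left out. The 15 calls at 3 h became 23 with arrays scaled to the same median and 5 without the intensity trend, and were 5 to 17 without single arrays. The 27 at 6 h became 14 without the trend and were 16 to 29 without single arrays. The 31 of the time course became 15 without the trend and were 15 to 33 without single arrays. The single call of 6 h against 3 h became 0 with no filter, without the trend, with only the 2 groups compared and with the mean of all probe sets, and was 0 to 1 without single arrays. That of 12 h against 6 h became 0 in the same alternatives, 2 with median scaling, and was 0 to 2 without single arrays. Ndufaf4 at 6 h turned to -0.28 with the mean of all probe sets. Deviations from the group mean correlated weakly between arrays of the same replicate number (-0.01 to 0.12). Such correlations cannot show whether the arrays were paired. With the replicate number as a block the counts were 17, 28 and 35 at 3, 6 and 12 h, 2 at 6 h against 3 h, 4 at 12 h against 6 h, and 33 over the time course. Except where stated, the cause of these shifts was not tested. With 2 arrays a time, and no detection calls, low signals cannot be called present or absent.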
